A study of Mus musculus with 31 samples.

Results

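Keratins, claudins and 7 further epithelial genes (Epcam, Cdh1, Upk3a, Emp2, Mal2, Prom1 and Pigr) were followed in bulk RNA-seq of immune cells sorted from irradiated mouse mammary tumours. The symbols match 83 of the 38406 rows of the count tables, and 28 of these reached 10 or more counts in at least 4 of the 31 libraries. These 28 genes are 13 keratins, 8 claudins and the 7 further genes. The other 55 rows, 38 keratins and 17 claudins, stayed below that level, and 21 of them had 0 counts in all libraries.

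The tumours were AT3-OVA, a triple negative mouse mammary line that carries the model antigen ovalbumin, grown in the mammary fat pad of female wild-type C57BL/6 mice. Local irradiation was given as 3 fractions of 4 Gy a day apart (3x4Gy) or as 1 dose of 20 Gy (1x20Gy), and mock mice were anaesthetized on the same schedule without radiation (3x0Gy, 1x0Gy). CD45.2, the pan-leukocyte marker, was used to sort the cells. Tumours taken 5 days after treatment ended gave 6 libraries for 3x4Gy, 4 for 3x0Gy, 6 for 1x20Gy and 4 for 1x0Gy. Those taken at 13 days gave 7 for 1x20Gy and 4 for 1x0Gy. Ages of the mice are not given in the sources used here.

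Keratins are the intermediate filament proteins of epithelial cells and assemble as pairs of a type I and a type II chain. In the mammary gland Krt5 and Krt14 mark the basal layer; Krt15 is a basal keratin of stratified epithelia. Krt8, Krt18 and Krt19 mark the luminal layer. Claudins are membrane proteins that seal or form pores in tight junctions between epithelial cells. Leukocytes as a class make few of these proteins, but Epcam, Cdh1 and Cldn1 are known in Langerhans cells and related dendritic cells.

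To show the start regions of genes on which the results turn, 4 promoters are printed, those found in the RefSeq promoter table among the 8 genes called in the same direction in at least 2 of the 3 comparisons of irradiated with mock tumours. Each line holds the 250 bases before the RefSeq start (GRCm38.p6), 5′ to 3′ on the gene's strand. Capitals mark GGGCGG, the core of a GC box, read on either strand, or TATAAA, the core of a TATA box, of which none was found in these 4.
Krt14, minus strand, chr11:100206031-100206280: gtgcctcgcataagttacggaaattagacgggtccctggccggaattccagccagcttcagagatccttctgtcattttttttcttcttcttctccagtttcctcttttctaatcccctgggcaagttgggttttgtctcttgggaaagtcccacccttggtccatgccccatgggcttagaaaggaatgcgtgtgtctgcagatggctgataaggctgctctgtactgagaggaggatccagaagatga
Pigr, plus strand, chr1:130826434-130826683: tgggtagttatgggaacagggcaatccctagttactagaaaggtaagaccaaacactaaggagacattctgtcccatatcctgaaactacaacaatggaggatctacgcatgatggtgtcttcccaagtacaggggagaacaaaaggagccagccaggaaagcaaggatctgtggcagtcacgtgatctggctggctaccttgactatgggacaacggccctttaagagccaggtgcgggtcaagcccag
Epcam, plus strand, chr17:87635729-87635978: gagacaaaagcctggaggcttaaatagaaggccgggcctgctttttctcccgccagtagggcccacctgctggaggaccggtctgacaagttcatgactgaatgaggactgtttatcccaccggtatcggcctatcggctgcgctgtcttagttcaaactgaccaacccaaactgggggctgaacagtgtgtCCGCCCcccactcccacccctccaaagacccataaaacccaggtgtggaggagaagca
Upk3a, plus strand, chr15:85016891-85017140: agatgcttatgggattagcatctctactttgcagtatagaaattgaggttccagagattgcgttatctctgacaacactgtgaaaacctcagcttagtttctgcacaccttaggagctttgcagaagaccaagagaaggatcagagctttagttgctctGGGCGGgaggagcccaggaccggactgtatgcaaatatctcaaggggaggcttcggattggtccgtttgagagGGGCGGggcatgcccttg
The RefSeq start of Krt14 lies inside its longer GENCODE gene, so its window is upstream of the RefSeq start only. Neither motif was found in the windows of Krt14 and Pigr. Epcam held 1 GGGCGG on the opposite strand, starting 58 bases upstream, and Upk3a held 2 on its own strand, 91 and 18 bases upstream. Of the 28 genes 20 matched the table, 11 with GGGCGG and 2 with TATAAA at any of their starts, where 32.7% and 12.4% of 32851 promoters hold them. A match is a description of the letters only.

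Libraries held 2641229 to 7541144 gene counts. No pair of replicates matched within sampling noise (chi-square divided by its degrees of freedom, 3.67 to 69.3). The 12 leukocyte genes summed to 6918 to 9755 CPM after 3x4Gy and 6270.3 to 8163 CPM after 3x0Gy, while the 28 epithelial genes summed to 248 to 1020.1 CPM after 3x4Gy and 719.8 to 1577 CPM after 3x0Gy. CPM are counts scaled to a common library size by TMM among the libraries of the same day, and levels were not compared between days because the sample codes of the 2 days differ. Reads outside annotated genes made up 21.1% to 28.1% of uniquely placed reads after 3x4Gy and 5.66% to 21.5% after 3x0Gy, with 3x0Gy library 2 lowest. They made up 17.6% to 28.8% after 1x20Gy and 15.9% to 18.4% after 1x0Gy at day 5, and 20.1% to 32.0% after 1x20Gy and 17.4% to 23.1% after 1x0Gy at day 13. Whether this share has a part in the results was not tested.

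At day 5 most of the epithelial genes that changed were lower in irradiated tumours, and at day 13 after 1x20Gy some were higher and others lower. After 3x4Gy, 8 of 26 genes tested fell and 1 rose (edgeR quasi-likelihood test, Benjamini-Hochberg adjusted p below 0.05), where 12.3% of all 12021 genes were called, 7.09% lower and 5.2% higher. After 1x20Gy at day 5, 12 of 26 fell and 0 rose, where 8.55% of all genes were called, 4.88% lower and 3.67% higher. At day 13, 3 of 22 fell and 6 rose, where 8.05% of 11071 genes were called, 3.83% lower and 4.22% higher. The median log2 fold change over the genes tested was -0.95 after 3x4Gy, -1.45 after 1x20Gy at day 5 and 0.58 at day 13, beside -0.004, 0.022 and 0.005 over all genes tested. In cells sorted in bulk, fewer cells of a type and less RNA per cell cannot be told apart. The 28 genes were kept by their counts over all libraries, so a gene low in most groups could enter through the groups where it is high. Upk3a, for example, reached 10 counts in 4 of 6 libraries after 3x4Gy, in 7 of 7 after 1x20Gy at day 13, in 2 of 4 after 1x0Gy at day 13 and in none of the other groups. At day 5, where Upk3a is the 1 gene called higher after 3x4Gy, it thus passed the count filter only through that group. Some genes called lower, such as Krt10, Krt16 and Krt79 at day 5, passed that filter mainly through the mock groups. Just inside the minimum stood Cldn2, with 10 counts or more in 4 libraries, and Cldn10 in 5, of which 4 were after 1x20Gy at day 13. Just outside stood Cldn6 and Krt222, in 1 library each.

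**Figure D1:**
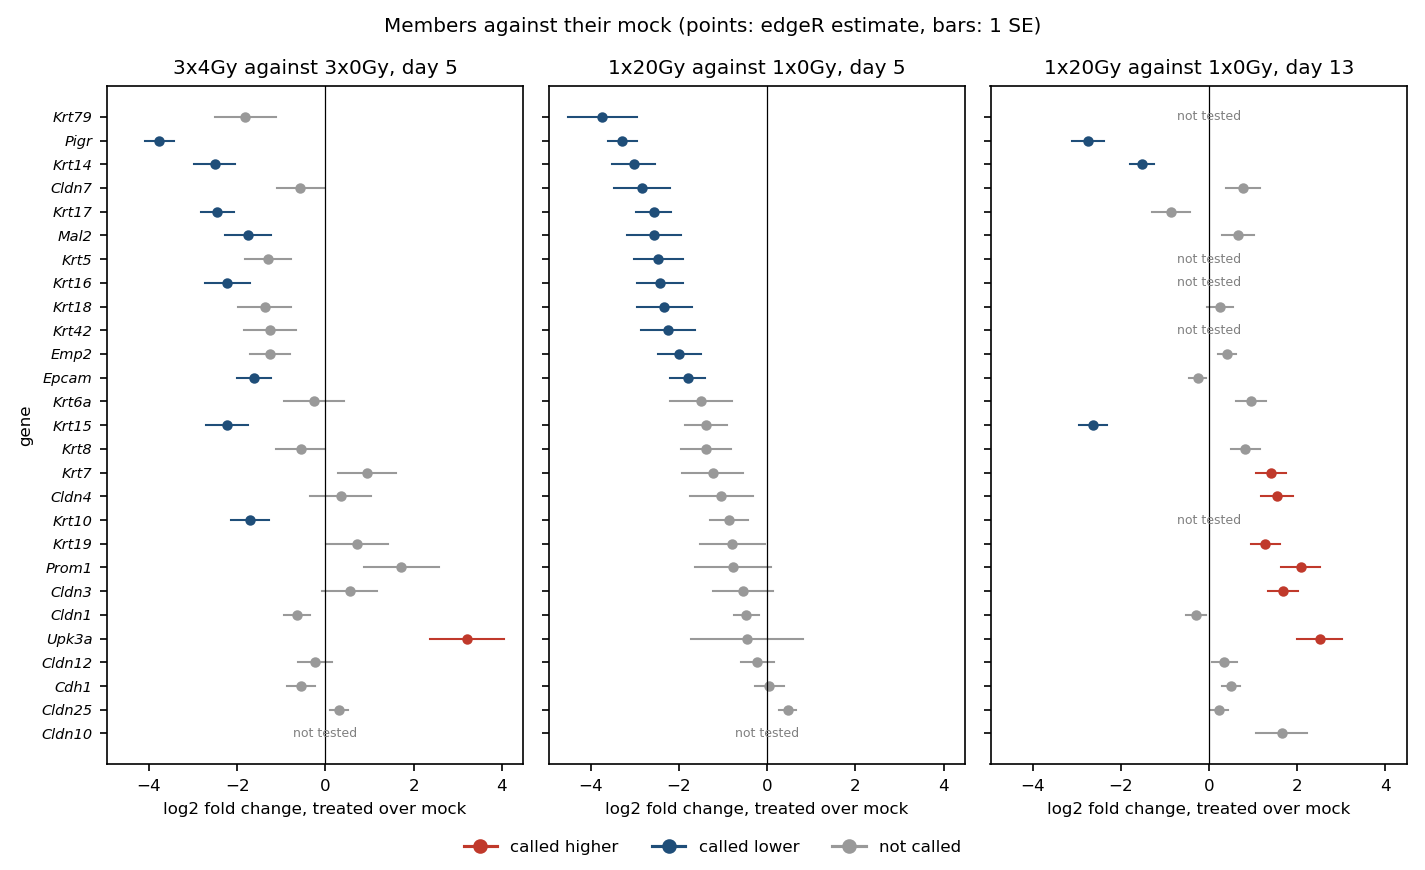
Log2 fold change (x axis, irradiated over mock, points with bars of 1 SE from edgeR) of 27 epithelial genes (y axis) in 3 comparisons with a mock group; Cldn2 was tested in none. Red marks genes called higher and blue genes called lower at an adjusted p below 0.05. Krt14 and Pigr are the 2 genes called lower in all 3 panels, and Upk3a is called higher in the first and the third.

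Scaled per kilobase of exon, so that genes can be compared, Krt18 and Cdh1 were among the 3 highest of the 27 genes with a known length in every group. Krt8 had rank 3 after 3x4Gy and after 1x20Gy at day 13 and rank 5 in the other groups, below Krt15 and Epcam there. After 3x4Gy the mean level was 40.2 ± 15.6 CPM per kb for Cdh1, 38.9 ± 31.5 for Krt18 and 29.3 ± 25.9 for Krt8 (SD, n = 6). After 3x0Gy it was 58.9 ± 33.9 CPM per kb for Cdh1, 102 ± 53.3 for Krt18 and 77.9 ± 33.5 for Krt15 (SD, n = 4). In both groups the ranges of these leading genes overlapped. With 1x20Gy at day 5 Cdh1 led with 45.8 ± 15.8 CPM per kb (n = 6), ahead of Krt15 with 14.5 ± 7.09 and Krt18 with 12.6 ± 14.8. In the 1x0Gy libraries of that day Krt18 led with 64.2 ± 19.9 CPM per kb and Cdh1 followed with 44.2 ± 6.59 (n = 4). Ranges overlapped between neighbours here too. At day 13 Krt18 led after 1x20Gy with 170.0 ± 86.3 CPM per kb (n = 7) and after 1x0Gy with 142 ± 39.9 (n = 4).

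Of the basal keratins Krt5, Krt14 and Krt15, 2 of 3 were called lower after 3x4Gy, 2 of 3 after 1x20Gy at day 5 and 2 of the 2 tested at day 13, and none was called higher. Over all genes tested, 7.09%, 4.88% and 3.83% were called lower in these comparisons. Krt14 (chr11:100203162-100207548, minus strand, GRCm38), the type I partner of Krt5, had 14.3, 12.9, 8.81, 3.54, 2.06 and 2.18 CPM after 3x4Gy, against 44.6, 42.9, 28.6 and 54.4 CPM after 3x0Gy. All 6 irradiated libraries lay below all 4 mock libraries, and 3x4Gy libraries 1 to 3 lay above libraries 4 to 6. The log2 fold change was -2.51 (SE 0.46, edgeR adjusted p = 0.00097). In the day 5 comparison of 1x20Gy Krt14 had 1.83, 1.74, 7.13, 1.60, 6.59 and 5.68 CPM, against 16.0, 27.5, 50.1 and 42.6 CPM after 1x0Gy, a log2 fold change of -3.03 (SE 0.48, edgeR adjusted p = 0.00041). Again no irradiated library reached a mock library. At day 13 it had 1.51 to 5.78 CPM (median 4.35) after 1x20Gy and 10.1, 13.5, 12.8 and 9.70 CPM after 1x0Gy, with 7 of 7 irradiated libraries below every mock library and a log2 fold change of -1.53 (SE 0.27, edgeR adjusted p = 0.0035). In GENCODE M21, 13.9% of the 50-base stretches of Krt14 occur in other genes, among them Krt16 and Krt17, so reads between these genes could be split or lost in counting.

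Krt15 (chr11:100131758-100135928, minus strand), a type I keratin of basal cells in stratified epithelia and hair follicles, had 59.9, 56.4, 24.9, 13.9, 13.8 and 5.89 CPM after 3x4Gy, against 219.6, 82.1, 111 and 138 CPM after 3x0Gy. The groups did not overlap, and the log2 fold change was -2.23 (SE 0.48, edgeR adjusted p = 0.0036). On day 5 after 1x20Gy the Krt15 values were 18.8, 11.8, 35.8, 14.2, 42.5 and 31 CPM, against 32.2, 61.8, 98.9 and 77.0 CPM after 1x0Gy. The groups overlapped here and the log2 fold change of -1.39 (SE 0.48, edgeR adjusted p = 0.076) did not pass the test. At day 13 Krt15 was the most reduced keratin, with 5.28 to 24.7 CPM (median 10.7) after 1x20Gy and 67.4, 60.9, 134 and 84.1 CPM after 1x0Gy and a log2 fold change of -2.63 (SE 0.32, edgeR adjusted p = 0.00048). All 7 irradiated libraries lay below the 4 mock libraries.

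Krt5 (chr15:101707070-101712898, minus strand), the type II partner of Krt14, was scarcer. It had 4.01, 3.16, 3.11, 0.591, 0 and 2.40 CPM after 3x4Gy, against 4.18, 4.43, 4.45 and 8.99 CPM after 3x0Gy. No irradiated library reached a mock library, yet the log2 fold change of -1.30 (SE 0.52, edgeR adjusted p = 0.1) did not pass the test. Following 1x20Gy, at day 5 it had 0 to 2.12 CPM (median 1.07), against 4.98, 5.27, 6.88 and 6.62 CPM after 1x0Gy, and it fell by this test with a log2 fold change of -2.47 (SE 0.55, edgeR adjusted p = 0.0064). At day 13 Krt5 did not pass the count filter, with 0.933 to 3.11 CPM (median 1.22) after 1x20Gy and 3.37, 1.89, 1.05 and 2.08 CPM after 1x0Gy.

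Of the luminal keratins Krt8, Krt18 and Krt19, 0 of 3 were called after 3x4Gy, 1 of 3 was called lower after 1x20Gy at day 5 and 1 of 3 higher at day 13. Over all genes tested, 4.88% were called lower after 1x20Gy at day 5 and 4.22% higher at day 13. The fold changes of all 3 luminal keratins were below 0 after 1x20Gy at day 5 and above 0 at day 13, and differences between the 3 genes were not tested. Krt8 (chr15:101996698-102004482, minus strand), the type II keratin of simple epithelia, had 84.2, 142, 66.5, 22.7, 10.3 and 18.8 CPM after 3x4Gy, against 125, 80.7, 62.5 and 75.0 CPM after 3x0Gy. The 6 irradiated libraries spread across the mock range, with library 2 above it and libraries 4 to 6 below it, and the log2 fold change was -0.56 (SE 0.56, edgeR adjusted p = 0.53). After 1x20Gy at day 5 Krt8 had 6.78, 11.1, 51.8, 7.33, 14.9 and 21.4 CPM, against 29.1, 53.0, 70.4 and 47.4 CPM after 1x0Gy. Library 3 of 1x20Gy stood apart from the other 5, and the log2 fold change of -1.39 (SE 0.57, edgeR adjusted p = 0.14) did not pass the test. Without that library it was -2.06, and the adjusted p of 0.026 passed. At day 13 Krt8 had 88.8 to 302 CPM (median 127) after 1x20Gy and 72.0, 71.5, 118 and 112 CPM after 1x0Gy, overlapping groups with a log2 fold change of 0.82 (SE 0.34, edgeR adjusted p = 0.15). Of the 50-base stretches of Krt8, 26.9% are shared with Krt8-ps, a pseudogene that is no row of the tables.

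Krt18 (chr15:102028180-102032027, plus strand), the type I partner of Krt8, had 94.5, 123, 60.1, 24.8, 11.9 and 20.5 CPM after 3x4Gy, against 245, 82.4, 88.9 and 168 CPM after 3x0Gy, and its log2 fold change of -1.38 (SE 0.60, edgeR adjusted p = 0.14) did not pass the test. With 1x20Gy at day 5 it had 4.70, 11.3, 60.2, 3.21, 15.9 and 12.9 CPM, against 66.2, 80.0, 133 and 90.1 CPM after 1x0Gy. Even library 3, the highest after 1x20Gy, lay below every mock library, and Krt18 fell with a log2 fold change of -2.33 (SE 0.62, edgeR adjusted p = 0.021). This call ended without 1x0Gy library 3 or 4, with adjusted p = 0.077 and 0.051. At day 13 Krt18 had 148 to 480.4 CPM (median 196) after 1x20Gy and 209.9, 135, 274 and 199 CPM after 1x0Gy, a log2 fold change of 0.25 (SE 0.30, edgeR adjusted p = 0.66).

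Krt19 (chr11:100140810-100148665, minus strand), a type I keratin of luminal and other simple epithelia, lies between Krt15 and Krt14 in the chromosome 11 cluster. It had 33.6, 58.9, 29.2, 6.20, 1.15 and 7.64 CPM after 3x4Gy, against 25.4, 10.2, 7.36 and 14.7 CPM after 3x0Gy, with a log2 fold change of 0.71 (SE 0.71, edgeR adjusted p = 0.53). In the day 5 comparison of 1x20Gy it had 1.30, 3.83, 19.7, 1.60, 2.76 and 3.93 CPM, against 6.25, 11.7, 12.0 and 9.67 CPM after 1x0Gy, with a log2 fold change of -0.79 (SE 0.73, edgeR adjusted p = 0.58). Without 1x20Gy library 3 it was -1.87, at an adjusted p of 0.128. At both comparisons of day 5 irradiated libraries lay on both sides of the mock values. At day 13 Krt19 rose, with 67.4 to 228 CPM (median 102) after 1x20Gy and 41.1, 41.0, 50.8 and 70.4 CPM after 1x0Gy and a log2 fold change of 1.27 (SE 0.33, edgeR adjusted p = 0.026). The groups touched, since 2 of 7 irradiated libraries lay below the highest mock library, and the call ended without 1x0Gy library 1, 2 or 3 (adjusted p up to 0.087).

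**Figure D2:**
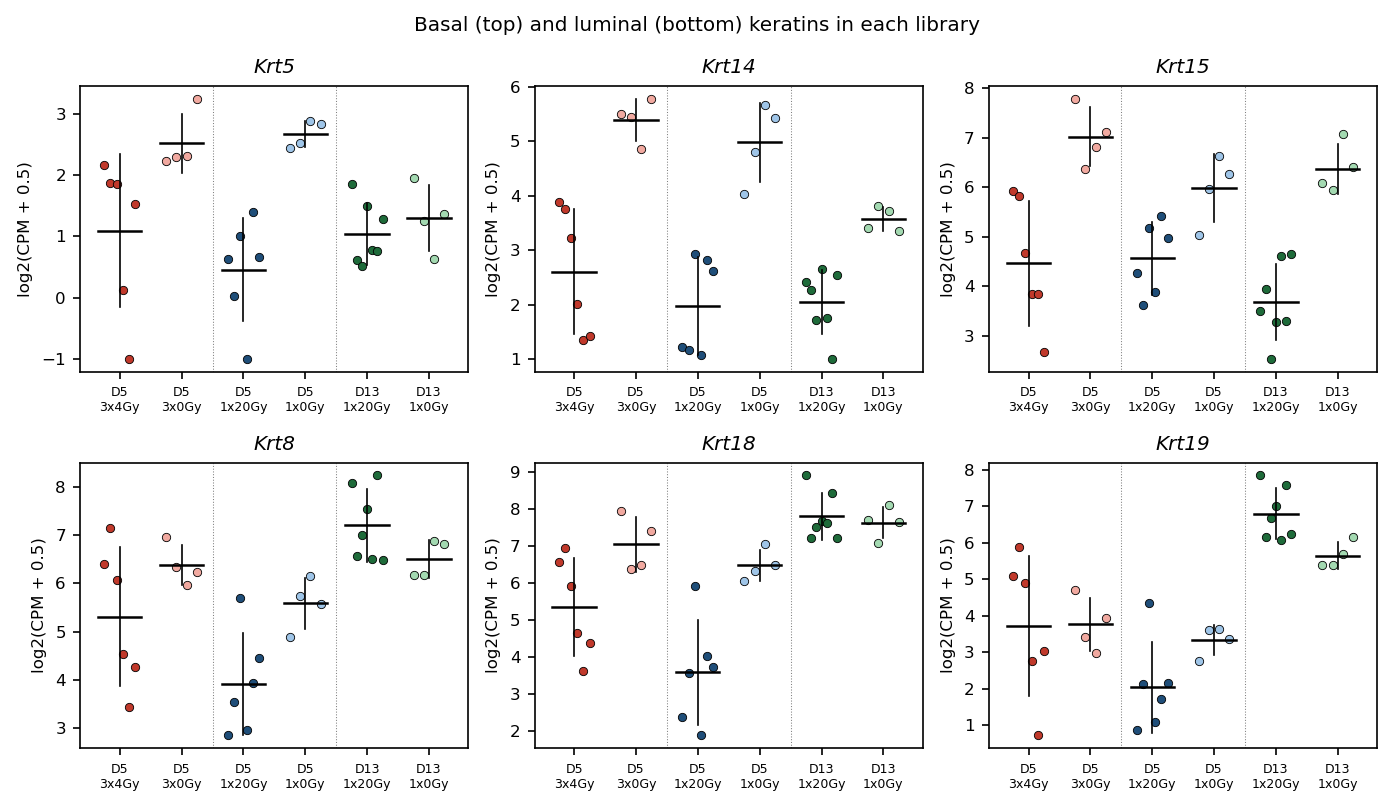
Level of the basal keratins Krt5, Krt14 and Krt15 (top row) and the luminal keratins Krt8, Krt18 and Krt19 (bottom row) in each library, as log2(CPM + 0.5) on the y axis, by group on the x axis. Points are libraries, horizontal lines the group mean and vertical lines 1 SD. Irradiated and mock libraries of Krt14 do not overlap in any pair, the irradiated being lower, while those of Krt8 overlap in all 3 pairs.

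Of the keratins that are induced in stressed or wounded epidermis, Krt16 and Krt17 fell at day 5 and Krt6a passed no test, and differences between these genes were not tested. Krt17 had 0.229 to 4.42 CPM (median 2.10) after 3x4Gy, against 17.1, 7.15, 10.4 and 16.7 CPM after 3x0Gy, and fell with a log2 fold change of -2.45 (SE 0.37, edgeR adjusted p = 0.00017). It had 1.04 to 1.97 CPM (median 1.72) after 1x20Gy at day 5, against 6.38, 10.5, 10.6 and 10.7 CPM after 1x0Gy, with a log2 fold change of -2.58 (SE 0.39, edgeR adjusted p = 0.00027). At neither comparison did the groups overlap. At day 13 the Krt17 value was -0.86 (SE 0.43, edgeR adjusted p = 0.25) and did not pass. Krt16 was scarce, at 0.295 to 1.58 CPM after 3x4Gy and 2.57 to 6.36 CPM after 3x0Gy, and fell with a log2 fold change of -2.22 (SE 0.51, edgeR adjusted p = 0.0063). It fell also after 1x20Gy at day 5, with 0 to 1.69 CPM against 2.08 to 6.55 CPM after 1x0Gy and a log2 fold change of -2.43 (SE 0.52, edgeR adjusted p = 0.005). For Krt16, 37.6% of its 50-base stretches are shared with Gm11597, Krt14 or Krt17, so its count is uncertain. At day 5 it reached 10 counts in 1 library after 3x4Gy and 0 after 1x20Gy, against 3 after 3x0Gy and 4 after 1x0Gy. Krt16 thus passed the count filter mainly through the mock groups, where it is high. Krt6a had log2 fold changes of -0.25 (SE 0.67, edgeR adjusted p = 0.83) after 3x4Gy, -1.50 (SE 0.70, edgeR adjusted p = 0.2) after 1x20Gy at day 5 and 0.96 (SE 0.34, edgeR adjusted p = 0.096) at day 13. It had 41.9, 27.0, 14.2, 4.13, 0.688 and 5.24 CPM after 3x4Gy, against 26.5, 17.7, 11.6 and 19.5 CPM after 3x0Gy, and 45.7% of its stretches are shared, mainly with Krt6b, while 24.8% of its exons overlap genes on the other strand.

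Among the remaining keratins, Krt7, a type II keratin of ductal epithelia, rose at day 13. It had 64.0, 23.0, 26.7, 31.8, 24.5, 45.5 and 16.5 CPM after 1x20Gy, against 8.27, 8.90, 17.8 and 14.3 CPM after 1x0Gy, with a log2 fold change of 1.40 (SE 0.34, edgeR adjusted p = 0.018). 1 of the 7 irradiated libraries lay below the highest mock library, and the call ended without 1x0Gy library 1 or 2 (adjusted p = 0.060 and 0.061). At day 5 Krt7 did not pass, at 0.94 (SE 0.66, edgeR adjusted p = 0.36) after 3x4Gy and -1.24 (SE 0.69, edgeR adjusted p = 0.29) after 1x20Gy. Krt10, a keratin of the upper epidermis, fell after 3x4Gy to 0.251 to 2.07 CPM, against 3.77 to 5.11 CPM after 3x0Gy, with a log2 fold change of -1.71 (SE 0.43, edgeR adjusted p = 0.011). On day 5 after 1x20Gy its value of -0.87 (SE 0.43, edgeR adjusted p = 0.23) did not pass. Krt42, a type I keratin, fell after 1x20Gy at day 5, at 0 to 3.19 CPM against 3.06 to 13.3 CPM after 1x0Gy, with a log2 fold change of -2.25 (SE 0.60, edgeR adjusted p = 0.021). That call ended without 1x0Gy library 2 or 3 (adjusted p = 0.075 and 0.086). Krt79, a keratin of the hair canal, had 3 counts over the 6 libraries after 1x20Gy at day 5 and 43 over the 4 libraries after 1x0Gy. The ratio of its summed counts per gene count was 0.0577 (95% exact counting interval 0.0114 to 0.18), and it was called lower with an adjusted p of 0.0043. At day 5 Krt79 reached 10 counts in 2 libraries of 3x0Gy and 2 of 1x0Gy, and in 0 of either irradiated group. It thus passed the count filter only through the mock groups, where it is high.

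By position, 7 of the 13 keratins lie on chromosome 11 and 6 on chromosome 15. In order along chromosome 11 they are Krt10, Krt15, Krt19, Krt14, Krt16, Krt17 and Krt42, all of type I. After 3x4Gy 5 of these 7 were called lower, against 0 of the 6 keratins on chromosome 15. Those 6 are Krt7, Krt6a, Krt5, Krt79, Krt8 and Krt18, and most of them were below 0 without passing the test. Their log2 fold changes were -1.81 (SE 0.69, edgeR adjusted p = 0.085) for Krt79, -1.38 for Krt18 and -1.30 for Krt5. They were -0.56 for Krt8, -0.25 for Krt6a and 0.94 for Krt7. Following 1x20Gy, at day 5, 4 of 7 fell on chromosome 11 and 3 of 6 on chromosome 15. At day 13, 2 of 4 tested fell and 1 rose on chromosome 11, where 1 of 4 tested rose and 0 fell on chromosome 15. Of all genes tested, 7.09% were called lower after 3x4Gy, 4.88% after 1x20Gy at day 5 and 3.83% at day 13. At day 13, 4.22% were called higher. The difference between the chromosomes was not tested.

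Of the claudins, 0 of 6 tested were called after 3x4Gy, 1 of 6 was called lower after 1x20Gy at day 5, and 2 of 7 were called higher at day 13. Over all genes tested, 4.88% were called lower after 1x20Gy at day 5 and 4.22% higher at day 13. The 2 that rose, Cldn3 and Cldn4, are claudins of glandular epithelia and lie close together on chromosome 5. Cldn3 (chr5:134986214-134987472, plus strand) had 140.2, 37.1, 59.7, 83.0, 35.1, 106 and 51.8 CPM after 1x20Gy at day 13, against 20.2, 21.03, 21.7 and 28.6 CPM after 1x0Gy. All 7 irradiated libraries lay above all mock libraries, and the log2 fold change was 1.67 (SE 0.34, edgeR adjusted p = 0.0078). Cldn4 (chr5:134945119-134946934, minus strand) had 258, 61.4, 76.5, 128, 63.3, 182 and 84.9 CPM after 1x20Gy at day 13, against 33.1, 37.8, 42.4 and 52.7 CPM after 1x0Gy, again without overlap. Its log2 fold change was 1.55 (SE 0.36, edgeR adjusted p = 0.016), and the call ended without 1x0Gy library 1 or 3 (adjusted p = 0.053 and 0.062). At day 5 the Cldn3 values were 18.6, 26.5, 12.4, 4.72, 2.29 and 5.45 CPM after 3x4Gy, against 13.9, 11.2, 2.57 and 6.36 CPM after 3x0Gy, and the log2 fold change was 0.55 (SE 0.63, edgeR adjusted p = 0.59). Cldn4 had 50.9, 109, 44.4, 10.6, 3.67 and 12.2 CPM after 3x4Gy, against 31, 58.6, 13.4 and 22.5 CPM after 3x0Gy, with a log2 fold change of 0.35 (SE 0.68, edgeR adjusted p = 0.77). For both genes the 3x4Gy libraries 1 to 3 were the highest of the group. After 1x20Gy at day 5 the log2 fold changes were -0.54 (SE 0.68, edgeR adjusted p = 0.7) for Cldn3 and -1.04 (SE 0.70, edgeR adjusted p = 0.41) for Cldn4, with library 3 the highest of its group for each.

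Cldn7 (chr11:69964779-69967885, plus strand), a claudin also found along the lateral membrane, fell after 1x20Gy at day 5. It had 0.522, 0.522, 1.502, 0.229, 0.850 and 0.437 CPM, against 6.25, 3.83, 5.24 and 5.01 CPM after 1x0Gy, so that no irradiated library reached a mock library, and the log2 fold change was -2.83 (SE 0.64, edgeR adjusted p = 0.007). After 3x4Gy it had 8.02, 9.95, 4.32, 0.886, 0.229 and 2.40 CPM, against 11.2, 4.77, 3.43 and 7.44 CPM after 3x0Gy, with a log2 fold change of -0.57 (SE 0.53, edgeR adjusted p = 0.5). At day 13 it had 11.6 to 52.3 CPM (median 15.9) after 1x20Gy and 15.3, 9.44, 16.5 and 12.7 CPM after 1x0Gy, with a log2 fold change of 0.78 (SE 0.38, edgeR adjusted p = 0.24).

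The other claudins passed no test. Cldn1, a barrier claudin of skin, had 8.27 to 21.8 CPM (median 14.1) after 3x4Gy, against 12.5, 23.2, 24.7 and 32.7 CPM after 3x0Gy. Its log2 fold changes were -0.64 (SE 0.30, edgeR adjusted p = 0.16) after 3x4Gy, -0.47 (SE 0.29, edgeR adjusted p = 0.34) after 1x20Gy at day 5 and -0.29 (SE 0.23, edgeR adjusted p = 0.48) at day 13. Cldn25 had 23.7 to 48.1 CPM (median 29.6) after 1x20Gy at day 5, against 26.3, 23.2, 19.5 and 23.5 CPM after 1x0Gy, with log2 fold changes of 0.31 (SE 0.20, edgeR adjusted p = 0.33), 0.46 (SE 0.20, edgeR adjusted p = 0.17) and 0.23 (SE 0.20, edgeR adjusted p = 0.52) in the order of the values of Cldn1. Cldn12 had log2 fold changes of -0.24 (SE 0.39) after 3x4Gy, -0.22 (SE 0.37) after 1x20Gy at day 5 and 0.35 (SE 0.28) at day 13. Cldn10 did not pass the count filter at day 5 and had a log2 fold change of 1.65 (SE 0.58, edgeR adjusted p = 0.092) at day 13. On that day it reached 10 counts in 4 libraries after 1x20Gy and in 0 after 1x0Gy, so it entered through the group where it is high. Cldn2, a pore-forming claudin, was too low to test. It had 0.251, 0, 0, 0, 0 and 0 CPM after 3x4Gy, against 6.27, 0.681, 1.199 and 1.86 CPM after 3x0Gy, and 0, 0.174, 0, 0, 0 and 0 CPM after 1x20Gy at day 5, against 1.02, 0.639, 0.982 and 2.51 CPM after 1x0Gy. In both comparisons of day 5 the groups did not overlap. Cldn2 reached 10 counts in 2 libraries after 3x0Gy, 1 after 1x0Gy at day 5 and 1 after 1x0Gy at day 13. It did so in 0 libraries of any irradiated group. Cldn2 thus met the count minimum only through the mock groups, where it is high. The lack of overlap is therefore no independent support for a fall.

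Pigr (chr1:130826684-130852249, plus strand), the receptor that carries IgA and IgM across epithelia into secretions, had the lowest fold change of the 26 genes tested after 3x4Gy and of the 22 tested at day 13. It had 2.51, 2.37, 1.04, 2.07, 2.29 and 1.96 CPM after 3x4Gy, against 47.1, 23.8, 15.2 and 26.2 CPM after 3x0Gy. The 6 irradiated libraries lay close together and far below the mock libraries, and the log2 fold change was -3.77 (SE 0.32, edgeR adjusted p = 2.1e-07). With 1x20Gy at day 5 it had 1.30, 1.57, 1.31, 0.458, 2.34 and 1.97 CPM, against 11.5, 11.02, 22.8 and 14.1 CPM after 1x0Gy, with a log2 fold change of -3.28 (SE 0.34, edgeR adjusted p = 5e-06). At day 13 it had 4.50, 4.60, 2.49, 1.73, 7.35, 0.904 and 3.39 CPM after 1x20Gy, against 27.3, 12.1, 36.6 and 17.6 CPM after 1x0Gy, with a log2 fold change of -2.75 (SE 0.37, edgeR adjusted p = 0.0007). None of the 3 pairs of groups overlapped. The 3x4Gy libraries 1 to 3, which lay above libraries 4 to 6 for Krt8 and Krt19, held both the highest and the lowest Pigr values of their group.

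Epcam (chr17:87635979-87651129, plus strand), an adhesion protein of epithelial cells, fell at day 5. It had 46.9, 70.4, 45.4, 21.3, 14.0 and 10.04 CPM after 3x4Gy, against 140.1, 65.4, 87.3 and 135 CPM after 3x0Gy, with a log2 fold change of -1.61 (SE 0.39, edgeR adjusted p = 0.008). The groups overlapped by 1 library on each side, and the call ended when the fit held these 2 groups alone. In the day 5 comparison of 1x20Gy Epcam had 23.0, 11.5, 37.5, 23.8, 23.2 and 26.2 CPM, against 82.9, 61.4, 104 and 89.5 CPM after 1x0Gy, without overlap and with a log2 fold change of -1.80 (SE 0.39, edgeR adjusted p = 0.005). At day 13 it had 65.0 to 152 CPM (median 73.4) after 1x20Gy and 120.4, 88.2, 120.4 and 94.9 CPM after 1x0Gy, a log2 fold change of -0.26 (SE 0.20, edgeR adjusted p = 0.48).

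Cdh1 (chr8:106603351-106670246, plus strand), E-cadherin of adherens junctions, passed no test in any comparison. It had 285, 229, 198, 116, 184 and 92.3 CPM after 3x4Gy, against 494, 139, 220.1 and 225 CPM after 3x0Gy, with a log2 fold change of -0.55 (SE 0.32, edgeR adjusted p = 0.26). Without 3x0Gy library 1, the highest, it was -0.083, at an adjusted p of 0.883. On day 5 after 1x20Gy it had 190.5, 109, 316, 264, 206 and 170.3 CPM, against 214, 219, 218 and 157 CPM after 1x0Gy, with a log2 fold change of 0.05 (SE 0.32, edgeR adjusted p = 0.96) whose sign changed with upper quartile or library size scaling and with limma voom. At day 13 it had 284 to 710.2 CPM (median 449) after 1x20Gy and 378, 289.9, 292 and 338 CPM after 1x0Gy, with a log2 fold change of 0.50 (SE 0.20, edgeR adjusted p = 0.13). Without 1x20Gy library 2 it passed, at an adjusted p of 0.0487. The irradiated and mock ranges of Cdh1 overlapped in all 3 comparisons.

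Mal2, a protein of vesicle traffic to the apical surface, and Emp2, a tetraspan membrane protein, were measured at both days; Mal2 fell after both regimens at day 5 and Emp2 after 1x20Gy. Mal2 (chr15:54571192-54602847) had 5.01, 7.74, 4.32, 0.295, 1.38 and 0.873 CPM after 3x4Gy, against 17.8, 10.6, 5.82 and 13.0 CPM after 3x0Gy, with a log2 fold change of -1.75 (SE 0.53, edgeR adjusted p = 0.034). This call was at its margin: it ended without 3x4Gy library 4, 5 or 6 or 3x0Gy library 1, 2 or 4 (adjusted p up to 0.10). Following 1x20Gy, at day 5 Mal2 had 0.174 to 2.40 CPM (median 0.621), against 5.49, 4.31, 7.37 and 8.24 CPM after 1x0Gy, without overlap and with a log2 fold change of -2.56 (SE 0.62, edgeR adjusted p = 0.011). Emp2 (chr16:10281749-10313968) fell after 1x20Gy at day 5, with 1.57 to 10.5 CPM (median 4.27), against 14.3, 19.7, 25.5 and 19.5 CPM after 1x0Gy, and a log2 fold change of -1.99 (SE 0.48, edgeR adjusted p = 0.011). After 3x4Gy its value of -1.25 (SE 0.46, edgeR adjusted p = 0.075) did not pass. At day 13 neither passed, at 0.66 (SE 0.37, edgeR adjusted p = 0.3) for Mal2 and 0.42 (SE 0.21, edgeR adjusted p = 0.24) for Emp2.

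Upk3a and Prom1 rose at day 13. Upk3a (chr15:85017141-85022547, plus strand), a uroplakin of the urothelial surface, had 31.5, 12.3, 27.0, 9.54, 7.76, 9.34 and 4.60 CPM after 1x20Gy, against 1.53, 2.16, 3.14 and 3.00 CPM after 1x0Gy. No irradiated library fell within the mock range, and the log2 fold change was 2.51 (SE 0.52, edgeR adjusted p = 0.0081). Upk3a reached 10 counts in 7 of 7 of these irradiated libraries and in 2 of 4 mock libraries. It thus passed the day 13 count filter mainly through the group where it is high, and this call is no independent support for a rise. Prom1 (chr5:43993620-44102032, minus strand), a membrane glycoprotein of apical protrusions also known as CD133, had 35.3, 9.21, 12.7, 23.4, 13.1, 25.6 and 6.78 CPM after 1x20Gy at day 13, against 5.21, 1.89, 5.44 and 4.16 CPM after 1x0Gy. These groups did not overlap either, and the log2 fold change was 2.08 (SE 0.44, edgeR adjusted p = 0.0094). Prom1 reached 10 counts in 7 of 7 irradiated libraries and in 3 of 4 mock libraries of that day. At day 5 Upk3a was the only gene of the 28 called higher after 3x4Gy, with 14.8, 21.3, 8.46, 4.13, 0.229 and 1.09 CPM, against 1.39, 0.681, 0.343 and 1.24 CPM after 3x0Gy, and a log2 fold change of 3.21 (SE 0.85, edgeR adjusted p = 0.015). It was high in 4 of the 6 libraries, and in libraries 5 and 6 within the mock range or below it. At day 5 Upk3a reached 10 counts in 3x4Gy libraries only, so it entered the test through the group where it is high. Its call is therefore no independent support for a rise. Without any 1 of 3x4Gy libraries 1 to 4 Upk3a no longer passed the count filter, and with limma voom or with these 2 groups alone the call ended. After 1x20Gy at day 5 Upk3a had 0 to 0.522 CPM against 0 to 1.07 CPM after 1x0Gy, too few counts to show a difference, with a log2 fold change of -0.46 (SE 1.26, edgeR adjusted p = 0.88). Prom1 did not pass at day 5, at 1.72 (SE 0.85, edgeR adjusted p = 0.19) after 3x4Gy and -0.77 (SE 0.86, edgeR adjusted p = 0.66) after 1x20Gy.

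**Figure D3:**
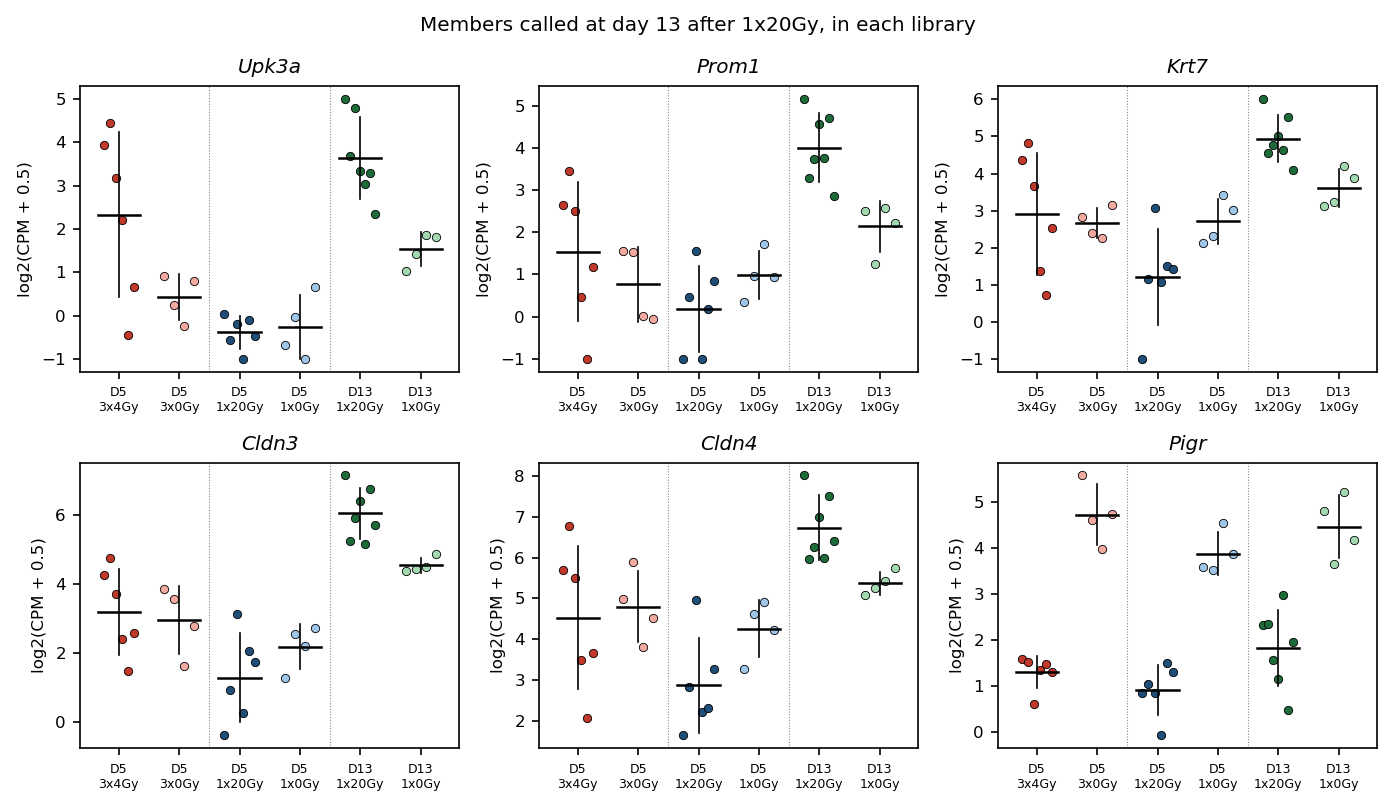
Level of the 5 genes Upk3a, Prom1, Krt7, Cldn3 and Cldn4, called higher after 1x20Gy at day 13, and of Pigr, called lower, in each library of all groups, as log2(CPM + 0.5) on the y axis, by group on the x axis. Points are libraries, horizontal lines the mean and vertical lines 1 SD. At day 13 the irradiated libraries of Upk3a, Prom1, Cldn3 and Cldn4 all lie above the mock libraries, and those of Pigr all lie below.

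Setting 2 genes against each other within a library removes the library scaling, and so the balance of the epithelial genes was described as counts per count of Krt8, without a test. Krt14 per Krt8 was 0.0912 to 0.200 (median 0.144) after 3x4Gy and 0.357 to 0.725 (median 0.495) after 3x0Gy. It was 0.138 to 0.443 (median 0.242) after 1x20Gy and 0.518 to 0.898 (median 0.630) after 1x0Gy at day 5, and 0.00499 to 0.0600 (median 0.0310) after 1x20Gy and 0.0866 to 0.189 (median 0.124) after 1x0Gy at day 13. In each pair the irradiated range lay wholly below the mock range, so Krt14 and Krt8 changed unequally. Pigr per Krt8 was 0.0156 to 0.222 (median 0.0603) after 3x4Gy, against 0.244 to 0.377 (median 0.322) after 3x0Gy, and 0.00299 to 0.0807 (median 0.0195) after 1x20Gy at day 13, against 0.157 to 0.379 (median 0.240) after 1x0Gy. Krt15 per Krt8 was 0.692 to 2.86 (median 1.69) after 1x20Gy at day 5 and 1.10 to 1.62 (median 1.28) after 1x0Gy, ranges that overlapped. At day 13 it was 0.0309 to 0.278 (median 0.0496) after 1x20Gy and 0.750 to 1.14 (median 0.894) after 1x0Gy, which did not overlap. In the 3x4Gy comparison it was 0.314 to 1.33 (median 0.504) after 3x4Gy and 1.02 to 1.84 (median 1.77) after 3x0Gy, with overlap. Krt18 per Krt8, a pair of partners, was 0.438 to 1.16 (median 0.854) after 1x20Gy at day 5, against 1.51 to 2.28 (median 1.89) after 1x0Gy, without overlap. It overlapped in the other pairs, at 0.870 to 1.16 (median 1.09) after 3x4Gy and 1.02 to 2.24 (median 1.69) after 3x0Gy, and 1.09 to 2.15 (median 1.59) after 1x20Gy and 1.78 to 2.92 (median 2.10) after 1x0Gy at day 13. Krt19 per Krt8 was higher at day 13 in every irradiated library, at 0.632 to 0.845 (median 0.743) after 1x20Gy and 0.430 to 0.629 (median 0.572) after 1x0Gy, and it overlapped with the mock values in both comparisons of day 5. Upk3a per Krt8 was 0.0222 to 0.182 (median 0.139) after 3x4Gy and 0.00548 to 0.0165 (median 0.00981) after 3x0Gy, so it was higher in libraries 5 and 6 too, where few counts of both genes remain. It was 0 to 0.0769 (median 0.0129) after 1x20Gy and 0 to 0.0226 (median 0.00671) after 1x0Gy at day 5, with overlap, and 0.0309 to 0.212 (median 0.0852) after 1x20Gy and 0.0213 to 0.0302 (median 0.0267) after 1x0Gy at day 13. A ratio shows unequal change and not which of the 2 genes changed.

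**Figure D4:**
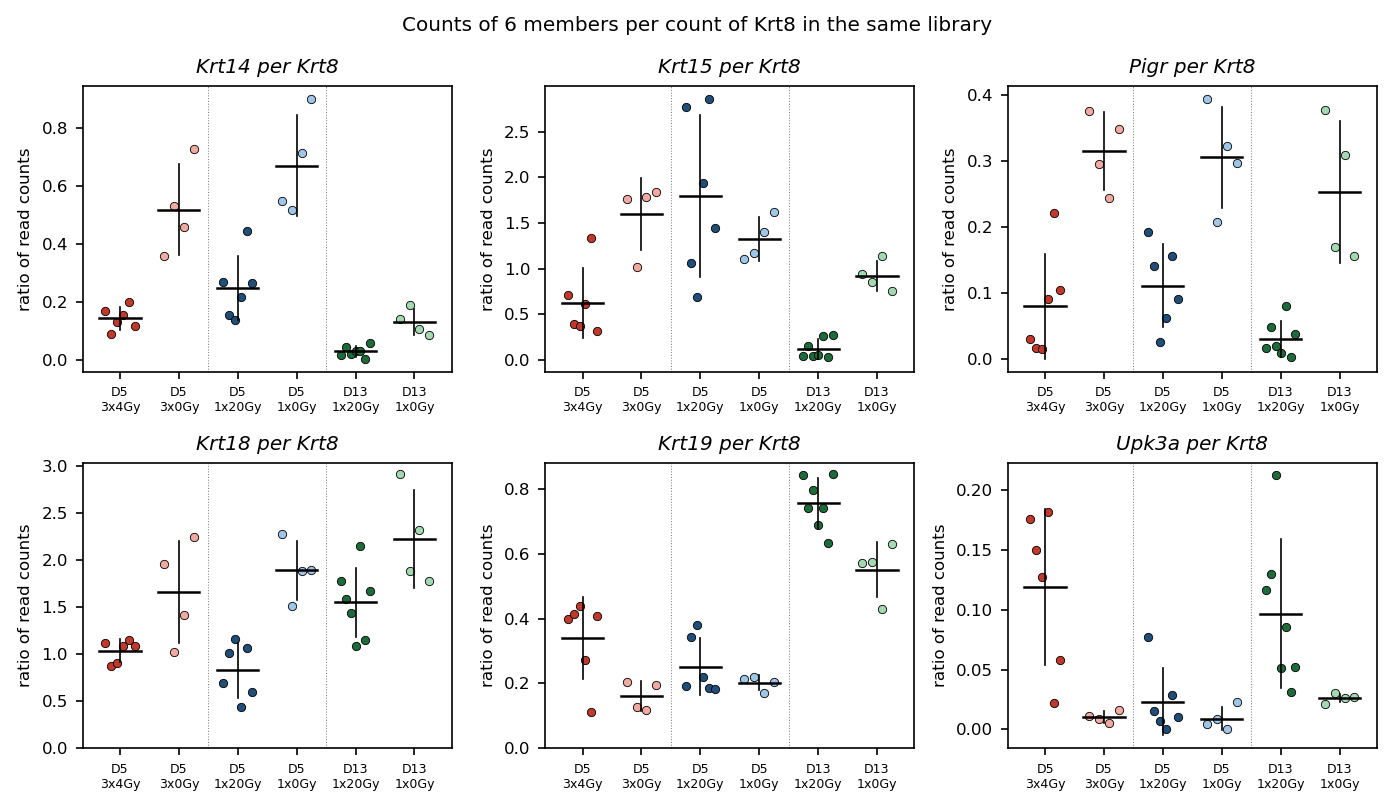
Counts of Krt14, Krt15, Pigr, Krt18, Krt19 and Upk3a per count of Krt8 in the same library (y axis, linear), by group (x axis). Points are libraries, horizontal lines the mean and vertical lines 1 SD. In all 3 pairs Krt14 per Krt8 is below the mock values after irradiation, with no overlap, and Krt19 per Krt8 at day 13 lies higher after 1x20Gy than after 1x0Gy.

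The regimens were set against each other as the difference of their responses at day 5, each against its own mock group. Of the 26 genes tested 0 were called, and the same holds for all 12021 genes (0%); 714 had an unadjusted p below 0.05, and DESeq2 called 1. The largest differences among the epithelial genes, 3x4Gy response minus 1x20Gy response, were 3.67 (SE 1.60, edgeR adjusted p = 0.8) for Upk3a, 2.48 (SE 1.21, edgeR adjusted p = 0.8) for Prom1 and 2.27 (SE 0.85, edgeR adjusted p = 0.8) for Cldn7. Genes called after 1 regimen and not after the other are thus not shown to differ between them. By the calls, Krt14, Krt16, Krt17, Epcam, Mal2 and Pigr fell after both regimens. Over all genes tested, 7.09% were called lower after 3x4Gy and 4.88% after 1x20Gy at day 5. The share called lower after both was not counted, so these names are a list and not a measure of overlap. Krt10 and Krt15 were called lower after 3x4Gy and not after 1x20Gy, and Krt5, Krt18, Krt42, Krt79, Cldn7 and Emp2 after 1x20Gy and not after 3x4Gy. Between the mock schedules, 3x0Gy against 1x0Gy, 0 of 26 epithelial genes and 0% of all genes were called (667 at an unadjusted p below 0.05, 2 by DESeq2). The largest value there was 1.12 (SE 1.16, edgeR adjusted p = 0.87) for Upk3a, followed by 1.03 (SE 0.52, edgeR adjusted p = 0.84) for Krt15.

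The response to 1x20Gy was higher at day 13 than at day 5 in 3 of 27 epithelial genes tested and lower in 0, where 0.423% of 12061 genes were called, 0.207% higher and 0.216% lower. The difference, day 13 response minus day 5 response, was 3.63 (SE 0.80, edgeR adjusted p = 0.045) for Cldn7, 3.25 (SE 0.77, edgeR adjusted p = 0.045) for Mal2 and 2.43 (SE 0.57, edgeR adjusted p = 0.045) for Emp2. Each of these fell at day 5 and was not called at day 13. The calls rest on small margins: upper quartile scaling, limma voom and most fits with 1 library left out ended all 3 of them. The median difference over the 27 genes was 2.21, beside 0.01 over all genes tested. For Krt14 the difference was 1.52 (SE 0.64, edgeR adjusted p = 0.29), for Pigr 0.55 (SE 0.54, edgeR adjusted p = 0.75) and for Krt15 -1.23 (SE 0.65, edgeR adjusted p = 0.45). Day and experiment cannot be told apart in this comparison.

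Other genes of epithelial cells were taken from 5 further lists. Over all genes tested, 7.09% were called lower and 5.2% higher after 3x4Gy. These shares were 4.88% and 3.67% after 1x20Gy at day 5, and 3.83% and 4.22% at day 13. Beside them a count of 1 called gene says little about a list. Of the epithelial transcription factors, 7 of 16 tested fell after 3x4Gy and 8 of 16 after 1x20Gy at day 5, with 0 higher in each, and at day 13 2 of 14 fell and 2 rose. Their median log2 fold change was -1.41 after 3x4Gy, -1.77 after 1x20Gy at day 5 and 0.20 at day 13. Tfap2c, a factor of mammary epithelium, fell after 3x4Gy with a log2 fold change of -2.90 (SE 0.50, edgeR adjusted p = 0.00062) and averaged 12.6 ± 9.96 CPM there, against 96.4 ± 40.0 CPM after 3x0Gy (SD, n = 6 and 4). Ehf, an ETS factor of epithelia, fell in all 3 comparisons, with -2.87 (SE 0.46, edgeR adjusted p = 0.00029) after 3x4Gy, -2.68 (SE 0.47, edgeR adjusted p = 0.001) after 1x20Gy at day 5 and -2.20 (SE 0.29, edgeR adjusted p = 0.0007) at day 13. Ovol1, a zinc finger factor of epithelial differentiation, rose at day 13 with a log2 fold change of 2.11 (SE 0.42, edgeR adjusted p = 0.0069). It had 7 to 20 counts after 1x20Gy and 2, 5, 6 and 3 after 1x0Gy on that day. It thus passed the count filter only through the group where it is high, and its call is no independent support for a rise. Foxa1, which opens chromatin for steroid receptors in luminal cells, fell after 1x20Gy at day 5 with -2.80 (SE 0.64, edgeR adjusted p = 0.0083).

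The counts of this paragraph stand beside shares over all genes of 7.09% lower after 3x4Gy and 4.88% after 1x20Gy at day 5. At day 13 the shares were 3.83% lower and 4.22% higher. Of the desmosome and hemidesmosome genes, 6 of 12 tested fell after 3x4Gy, 6 of 12 after 1x20Gy at day 5 and 1 of 14 at day 13, and 0 rose. The medians were -1.22 after 3x4Gy, -1.26 after 1x20Gy at day 5 and -0.21 at day 13. The desmosomal cadherin Dsg2 had log2 fold changes of -2.19 (SE 0.46, edgeR adjusted p = 0.0033) after 3x4Gy and -2.80 (SE 0.49, edgeR adjusted p = 0.001) after 1x20Gy at day 5. Among tight and adherens junction genes other than claudins, 6 of 19 fell after 3x4Gy, 5 of 19 after 1x20Gy at day 5 and 1 of 18 at day 13, where 1 rose, with medians of -0.65, -0.93 and -0.03 for these comparisons. Cgnl1, paracingulin of the junction plaque, fell in all 3, with -2.39 (SE 0.45) after 3x4Gy, -1.64 (SE 0.46) after 1x20Gy at day 5 and -1.09 (SE 0.26) at day 13, while Cgn, cingulin, rose at day 13 with 1.196 (SE 0.29, edgeR adjusted p = 0.02). Of the mammary secretory genes, 6 of 10 fell after 3x4Gy, 4 of 10 after 1x20Gy at day 5 and 4 of 8 at day 13, with medians of -1.97, -1.79 and -0.49. The milk protein gene Csn1s1 fell in each, with -3.63 (SE 0.52, edgeR adjusted p = 9.6e-05) after 3x4Gy, -4.82 (SE 0.65, edgeR adjusted p = 0.0001) after 1x20Gy at day 5 and -1.88 (SE 0.49, edgeR adjusted p = 0.027) at day 13. The casein gene Csn2 had 3 counts over the 3x4Gy libraries and 131 over the 3x0Gy libraries, a ratio per gene count of 0.0136 (95% exact counting interval 0.00277 to 0.0407). Csn1s1 had 0 to 14 counts after 3x4Gy, 0 to 2 after 1x20Gy at day 5 and 1 to 19 at day 13. Mock libraries had 17 to 96 counts of it. Csn1s1, and Csn2 at day 5, thus passed the count filter mainly through the mock groups, where they are high. Of the epidermal and hair follicle genes, 2 of 6 tested fell after each regimen at day 5, Sprr1a and Calml3, and at day 13 Sfn rose and Sbsn fell (medians -1.34 after 3x4Gy, -1.31 after 1x20Gy at day 5 and -0.12 at day 13).

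Markers of some other cells moved beside the epithelial genes. Over all genes tested, 7.09% were called lower and 5.2% higher after 3x4Gy. These shares were 4.88% and 3.67% after 1x20Gy at day 5, and 3.83% and 4.22% at day 13. Of the fibroblast and matrix genes, 8 of 10 tested fell after 3x4Gy, 3 of 10 after 1x20Gy at day 5 and 6 of 9 at day 13, with 0 higher in each and medians of -2.33, -1.22 and -1.72. Their summed level was 75.9 to 168 CPM after 3x4Gy and 294 to 766 CPM after 3x0Gy. It was 90.8 to 183 CPM after 1x20Gy and 182 to 407 CPM after 1x0Gy at day 5, and 87.7 to 131 CPM after 1x20Gy and 195 to 261 CPM after 1x0Gy at day 13. No gene of this list was at 0 in every library of a group. Mgp, matrix Gla protein, led it with -5.70 (SE 0.46, edgeR adjusted p = 2.1e-07) after 3x4Gy. Most counts in the sums of that comparison were of Thy1 or Mgp. Thy1 had 383, 545, 305, 160, 211 and 247 counts after 3x4Gy and 228, 140, 566 and 216 after 3x0Gy. Mgp had 18, 42, 19, 33, 16 and 6 counts after 3x4Gy and 1268, 400, 916 and 1684 after 3x0Gy. These sums thus do not show the level of the list as a set. Endothelial genes summed to 47.0 to 79.1 CPM after 3x4Gy and 28.3 to 43.6 CPM after 3x0Gy, but most counts in these sums were of Kdr. It had 248, 257, 340, 180, 179 and 225 counts after 3x4Gy and 84, 54, 181 and 210 after 3x0Gy. Kdr was the only one called of the 5 tested, higher after both regimens at day 5. The median of the 5 was 0.36 after 3x4Gy, with 1 of them below 0, so the sum does not show a rise of endothelial genes as a set. Cldn5, the endothelial claudin, was at 0 in every library of 3x4Gy, 1x20Gy and 1x0Gy at day 5 and had 2 counts in 1 library of 3x0Gy. Of the 11 leukocyte genes tested, 3 rose after 3x4Gy, 0 after 1x20Gy at day 5 and 2 at day 13, where 2 fell. Ptprc, which encodes CD45, averaged 1151 ± 467 CPM after 3x4Gy, against 623 ± 179.5 CPM after 3x0Gy (SD, n = 6 and 4). Its values are given for this pair only. The leukocyte genes together summed to 7738 to 9674 CPM after 1x20Gy at day 5 and 6773 to 9247 CPM after 1x0Gy. At day 13 they summed to 5533 to 7195 CPM after 1x20Gy and 6226 to 7276 CPM after 1x0Gy. Both pairs of ranges overlapped. The part of these other cells in the epithelial results was not tested.

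The summed level of the 3 luminal keratins per library shows how unequal the libraries were. It was 23.4 to 324 CPM after 3x4Gy and 159 to 395 CPM after 3x0Gy, 12.1 to 132 CPM after 1x20Gy and 102 to 215 CPM after 1x0Gy at day 5, and 312 to 979 CPM after 1x20Gy and 247 to 443 CPM after 1x0Gy at day 13. The basal keratins summed to 10.5 to 78.2 CPM after 3x4Gy and 129 to 268 CPM after 3x0Gy, 14.1 to 51.2 CPM after 1x20Gy and 53.1 to 156 CPM after 1x0Gy at day 5, and 9.01 to 31.9 CPM after 1x20Gy and 76.3 to 148 CPM after 1x0Gy at day 13. For the basal sum no irradiated library reached its mock group in any of the 3 pairs, and for the luminal sum the groups overlapped in each. Genes of the mesenchymal programme gave 2 lower and 1 higher of 7 tested after 3x4Gy, 1 lower of 7 after 1x20Gy at day 5 and 1 lower of 5 at day 13. Over all genes, 7.09% were called lower and 5.2% higher after 3x4Gy. The lower share was 4.88% after 1x20Gy at day 5 and 3.83% at day 13, so single calls say little here. Twist1, a factor of that programme, fell after 3x4Gy with -3.12 (SE 0.73, edgeR adjusted p = 0.0065) and after 1x20Gy at day 5 with -3.55 (SE 0.78, edgeR adjusted p = 0.0061).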

How the data were processed

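Each library is 1 deposited table of whole-number counts per gene symbol. Per the submitters' processing notes, the authors used bcl2fastq 2.20.0.422, cutadapt 1.5, HISAT2 2.0.4 and HTSeq 0.9.1 with GRCm38 or mm10; annotation and strand setting are not given in the sources used here, so reads of a gene and an antisense partner cannot be told apart. Lines for reads without a gene were left out of library sizes. Groups follow the sample titles. Tests used edgeR 4.0.16 under R 4.3.3 (filterByExpr with a minimum count of 10 and total of 15, TMM scaling, two-sided quasi-likelihood test, Benjamini-Hochberg adjustment over all genes tested, called below 0.05). SE is the absolute log2 fold change over the square root of F. The 20 day 5 libraries shared 1 fit, the 11 day 13 libraries another, and the difference between days used all 31. Nothing in the labels says that the libraries of a group came from separate mice, so p-values measure the spread between these samples, which may be technical. Alternatives used limma 3.58.1 (voom) and DESeq2 1.42.0. The fits were tested on simulated data. The genes, lists, tests and alternatives were chosen with earlier results of these data known. Named genes are Krt5, Krt14, Krt15, Krt8, Krt18, Krt19, Epcam and Cdh1, every one of the 28 called in any of the 6 comparisons, those above 10 CPM on average in any group, the 2 highest called in none, and of each further list at most the 2 called genes with the largest change; others named were chosen after their values were seen. Gene positions and shared 50-base stretches come from GENCODE M21 (GRCm38), which holds 27 of the 28 genes and 81 of the 83 rows. Of 23 junction genes 21 matched a row, and the other lists matched in full.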

Additional observations from a re-analysis of the deposited data

Results flagged for a closer look

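In 18 of 168 combinations of a gene and a group, 1 library lay apart from the rest of its group by Dixon's criterion. For independent, normally distributed values it flags about 1 in 20 by chance. It was used here on unlogged CPM, and genes of 1 library are not independent, so that rate need not hold. Library 3 of 1x20Gy at day 5 accounts for 5 of them: it had 51.8 CPM of Krt8 where the others had 6.78 to 21.4, 60.2 CPM of Krt18 (others 3.21 to 15.9), 19.7 CPM of Krt19 (others 1.3 to 3.93), 7.88 CPM of Krt7 (others 0 to 2.34) and 30.6 CPM of Cldn4 (others 2.61 to 9.17). In the same group library 2 was low for Cldn1 with 8.53 CPM (others 23.4 to 29.1), library 4 was high for Cldn25 with 48.1 CPM (others 23.7 to 31.7), and library 2 alone had reads of Cldn2, at 0.174 CPM. After 3x4Gy library 3 had 1.04 CPM of Pigr (others 1.96 to 2.51), and library 1 alone had reads of Cldn2, at 0.251 CPM.

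After 1x20Gy at day 13, library 1 had 152 CPM of Epcam (others 65.0 to 94.3), library 3 had 21.4 CPM of Cldn1 (others 9.8 to 14.8) and library 5 had 1.22 CPM of Cldn2 (others 0 to 0.484). In mock tumours, 1x0Gy library 4 at day 5 had 157 CPM of Cdh1 (others 214 to 219), 1x0Gy library 1 at day 5 had 6.38 CPM of Krt17 (others 10.5 to 10.7) and 3x0Gy library 4 had 8.99 CPM of Krt5 (others 4.18 to 4.45). At day 13, 1x0Gy library 2 had 4.58 CPM of Mal2 (others 7.66 to 7.94) and 1x0Gy library 3 had 2.09 CPM of Cldn2 (others 0.462 to 0.613).

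The response to 1x20Gy differed between day 13 and day 5 by a test of the difference itself for Cldn7 (3.633 on the log2 scale), Mal2 (3.252) and Emp2 (2.432), with an edgeR adjusted p of 0.045 each. All 7 libraries after 1x20Gy at day 13 lay within or above the range of the day 13 1x0Gy libraries for Cldn7, and all 6 after 1x20Gy at day 5 lay below that of the day 5 1x0Gy libraries.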

How the results depend on the processing

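Of 33 calls, 33 were kept with DESeq2 size factors, without a filter on low counts and with the DESeq2 test, 31 with library size alone, 30 with upper quartile scaling and 29 with limma voom, and with the 2 groups compared alone 17 of the 20 day 5 calls that could be followed were kept; none reversed. Genes called higher after 3x4Gy numbered 0 with voom and 0 with 3x4Gy and 3x0Gy alone in the fit, against 1 (Upk3a). Genes called higher in the difference between days numbered 0 with upper quartile scaling, voom and a replicate block and 1 by library size, against 3. Cdh1 after 1x20Gy at day 5, 0.05 on the log2 scale, was -0.017 with upper quartile scaling, -0.093 by library size and -0.013 with voom, and -0.151 to 0.181 with 1 library left out; the cause was not tested.

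The title numbers showed no clear pairing: deviations of same-numbered libraries correlated at -0.255 to 0.401, and libraries did not all correlate best with their own number. The 3x0Gy libraries 1 and 4 did, at 0.401 and 0.201. Such correlations cannot exclude a link between same-numbered libraries. With the replicate block 25 of the 33 calls were kept and 8 of the 12 genes lower after 1x20Gy at day 5 were called.

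With 1 library left out, genes called lower numbered 7 to 9 after 3x4Gy, 11 to 14 after 1x20Gy at day 5 and 3 at day 13. Those called higher numbered 0 to 1 after 3x4Gy, 3 to 7 at day 13 (3 without 1x0Gy library 1) and 0 to 4 in the difference between days. In the difference between days the count was 0 in most of these fits, that without 1x20Gy library 1 at day 5 among them. Calls over all genes were 702 against 1477 after 3x4Gy with 2 groups in the fit, 582 and 556 against 1028 after 1x20Gy at day 5 without 1x0Gy library 3 or 4, and 588 and 306 against 891 at day 13 without 1x0Gy library 2 or 3. By library size they were 1533 at day 13. For the difference between days they were 5 with upper quartile scaling, 85 without a filter, 228 with DESeq2, 3 with voom and 8 with the block, against 51, and 1 to 110 with 1 library left out.

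Of the calls over all genes, 42.3% were higher after 3x4Gy, 28.8% with upper quartile scaling and 23.1% by library size. After 1x20Gy these shares were 42.9%, 29.8% and 18.2% at day 5 and 52.4%, 42.9% and 14.5% at day 13. Library size alone shifted the median of all genes to -0.10, -0.11 and -0.23. Intervals cover counting error only, and genes such as Krt79, Cldn2 and Krt16 had too few counts for small differences to show. A minimum of 5 counts kept 31 genes and one of 20 kept 23.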
